A study of Homo sapiens with 4 samples.

Results

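The SOX genes encode transcription factors that bind DNA through an HMG box, and 10 of them that specify lineages were examined for peaks of EZH2. These were SOX1, SOX2, SOX14 and SOX21 of group B, SOX11 of group C, SOX8, SOX9 and SOX10 of group E, and SOX17 and SOX18 of group F. Every peak that touched the 20 kb on either side of a gene start was taken as a peak at that gene. This gave 18 of the 35016 peaks in the H3.1-K27M list and 24 of the 31077 peaks in the H3.1-WT list. The starts are hg19 positions given to the nearest kb, so distances from a start carry that uncertainty. They were not checked against an hg19 annotation, and a peak was placed near a gene by distance alone.

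The peaks came from CUT&RUN, which cuts DNA around an antibody-bound protein inside opened cells, with 200000 cells per reaction. HEK293, a line of human embryonic kidney origin with an abnormal karyotype, had been infected with lentivirus, selected with G418 and induced with doxycycline at 1 µg/ml to express H3.1-K27M, a histone H3.1 whose lysine 27 is replaced by methionine, or H3.1-WT. Both groups thus carry an induced H3.1 beside their own histone genes, and the sources used here do not say whether either is a clone. Each genotype had 1 EZH2 library and 1 library made with an anti-rabbit HRP secondary antibody alone, and the names in each list pair its EZH2 library with the HRP library made from the same cells. The titles of the H3.1-K27M libraries read H31 without the mutation, so their genotype rests on the genotype label. With 1 EZH2 library per genotype no test between genotypes was possible, and the genotype and the library cannot be told apart. The lists hold no read counts, so depth is unknown, and its part in differences of peak number, width or fold enrichment was not tested. Peak lists hold no expression, so the cell line could not be checked against marker genes. Fewer cells with bound EZH2 and less EZH2 per cell cannot be told apart in these bulk data.

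EZH2 is the methyltransferase of PRC2, the Polycomb complex that places methyl groups on lysine 27 of histone H3. In mammals PRC2 is best known for occupying CpG-rich starts of developmental regulators in cells that do not use them, often as domains wider than a promoter. The K27M substitution is a driver of diffuse midline glioma, a childhood brain tumour. SOX factors of groups B, C and E act in neural progenitors, neurons, neural crest and glia, and those of group F in endoderm and vessels.

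RefSeq sequences of the 250 bases before the start (GRCh38.p14, matched by symbol) were found for 3 of the 10 genes, SOX1, SOX2 and SOX21, and are shown because CpG-rich starts are typical PRC2 sites. SOX1 and SOX2 are read on the plus strand and SOX21 on the minus strand. Capitals mark every CG dinucleotide, the only motif searched; it reads the same on both strands.

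SOX1: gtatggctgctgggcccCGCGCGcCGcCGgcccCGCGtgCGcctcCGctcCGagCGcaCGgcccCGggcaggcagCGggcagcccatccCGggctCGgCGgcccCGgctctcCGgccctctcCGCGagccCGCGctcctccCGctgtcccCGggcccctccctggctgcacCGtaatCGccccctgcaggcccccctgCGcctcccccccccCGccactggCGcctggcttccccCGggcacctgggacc
SOX2: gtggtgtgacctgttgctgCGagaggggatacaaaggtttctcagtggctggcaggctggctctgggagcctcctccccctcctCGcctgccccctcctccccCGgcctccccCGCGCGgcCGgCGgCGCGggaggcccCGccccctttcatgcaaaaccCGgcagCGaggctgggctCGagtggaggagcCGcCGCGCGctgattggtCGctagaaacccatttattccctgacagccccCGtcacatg
SOX21: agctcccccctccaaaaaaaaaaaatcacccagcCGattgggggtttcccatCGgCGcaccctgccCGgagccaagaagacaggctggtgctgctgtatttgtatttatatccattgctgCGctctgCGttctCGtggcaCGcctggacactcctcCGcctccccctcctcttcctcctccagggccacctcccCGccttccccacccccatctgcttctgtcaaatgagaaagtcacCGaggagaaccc

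The SOX1 stretch held 31 CG and was 82.0% G or C, the SOX2 stretch held 20 and was 68.8%, and the SOX21 stretch held 11 and was 58.8%. Of the 35116 RefSeq promoters, 10.9% held as many CG as SOX1, 32.4% as many as SOX2 and 50.3% as many as SOX21. The medians over all promoters were 11 CG and 58.0% G or C, which SOX1 and SOX2 exceeded and SOX21 about equalled. The widest EZH2 peak at any of the 10 genes lay over SOX21, the least CG-rich of these 3 stretches. By covered length in H3.1-WT cells the order differed, with 14987 bases at SOX1, 9621 at SOX21 and 2109 at SOX2. A relation between CG content and EZH2 peaks was not tested.

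Counting peaks of any strength, EZH2 peaks were present at most of the SOX genes in both genotypes, and they were shorter and less enriched in H3.1-K27M cells. Median width was 860.5 bases in H3.1-K27M cells and 1219.5 bases in H3.1-WT cells, and median fold enrichment 3.55 in H3.1-K27M cells and 4.39 in H3.1-WT cells. On all autosomes median width was 810 bases in H3.1-K27M cells and 778 in H3.1-WT cells. Median fold enrichment there was 3.36 in H3.1-K27M cells and 3.43 in H3.1-WT cells. The H3.1-K27M SOX peaks thus lay nearer their list medians than the H3.1-WT ones. At least 1 peak lay within 20 kb of the start at 8 genes in H3.1-K27M cells and at 9 in H3.1-WT cells, whereas 23.0% of the 72036 autosomal tiles of 40 kb held one in the H3.1-K27M list and 29.0% in the H3.1-WT list. With a −log10 q of at least 2 the genes with a peak numbered 3 in H3.1-K27M cells and 9 in H3.1-WT cells, so most H3.1-K27M genes rest on weak calls. No tile share is given here at that minimum. Under it lay 21084 of the 28323 autosomal H3.1-K27M peaks and 16701 of the 29018 autosomal H3.1-WT peaks, so weak calls were common throughout both lists. The tiles cut each autosome into equal stretches without regard to genes, so they describe the genome and not other gene starts. Peaks covered 25126 bases of the 10 windows in H3.1-K27M cells and 58612 in H3.1-WT cells, a ratio of 0.429, while the ratio over all autosomes was 1.04. Covered length was lower in H3.1-K27M cells at each of the 9 genes with a peak in either list, which was so in 59.8% of the 26719 tiles with a peak in either list. Peak numbers, 18 against 24, gave a ratio of 0.750 with an exact 95% interval of 0.384 to 1.44. The autosomal ratio of peak numbers was 0.976, and the interval includes it, so it does not separate the SOX genes from the autosomes. The interval is for peak numbers and does not bear on covered length. It covers counting error only and treats peaks as independent.

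**Figure D1:**
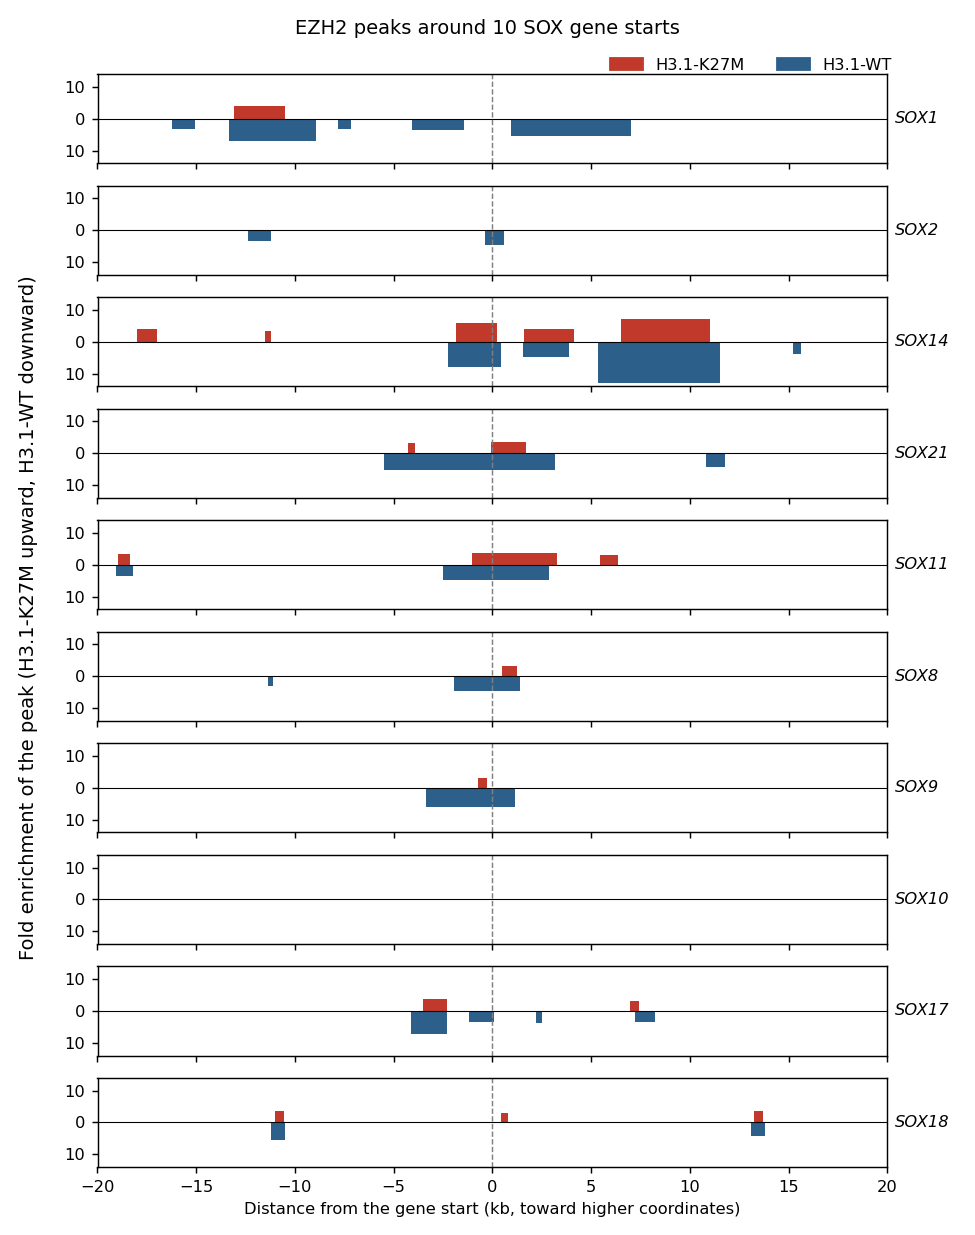
EZH2 peaks within 20 kb of the 10 SOX gene starts, by distance from the start in kb (horizontal axis, genome orientation). Each box is a deposited peak, its height the authors' fold enrichment, drawn upward for H3.1-K27M and downward for H3.1-WT; 14 of the 18 H3.1-K27M boxes overlap an H3.1-WT box, and SOX10 has none.

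Strong peaks were fewer at the SOX genes in H3.1-K27M cells. Peaks whose −log10 q reached 5 are called strong here. This level was reached by 2 peaks in H3.1-K27M cells, both at SOX14, and by 8 peaks at 6 genes in H3.1-WT cells. Such a peak lay in 0.925% of autosomal tiles in H3.1-K27M cells and in 2.91% in H3.1-WT cells. On all autosomes there were 619 strong peaks in H3.1-K27M cells and 2024 in H3.1-WT cells, so fewer strong peaks at the SOX genes went with fewer strong peaks throughout the H3.1-K27M list. Of the SOX peaks, 12 of 18 in H3.1-K27M cells and 7 of 24 in H3.1-WT cells had a −log10 q under 2. On autosomes this held for 21084 of 28323 peaks in H3.1-K27M cells and 16701 of 29018 in H3.1-WT cells. The SOX peaks were thus not weaker than their own list by this count.

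Within group B, SOX14 had the strongest EZH2 peaks of all 10 genes in both genotypes. SOX14 (chromosome 3, 3q22.3) encodes a repressor of the B2 branch that marks interneurons of the developing brain and spinal cord. Its strongest peak lay above the start, at chr3:137489533-137494044 in H3.1-K27M cells, with a fold enrichment of 7.05 and a −log10 q of 10.7. In H3.1-WT cells it spanned chr3:137488347-137494524, with a fold enrichment of 12.9 and a −log10 q of 32.1. Within its own list this peak ranked 109 by fold enrichment in H3.1-K27M cells and 53 in H3.1-WT cells. The SOX14 start itself was spanned by peaks of 5.76-fold in H3.1-K27M cells and 7.96-fold in H3.1-WT cells. Between them another shared peak reached 4.13-fold in H3.1-K27M cells and 4.79-fold in H3.1-WT cells. The covered length at SOX14 was nearly equal, 10519 bases in H3.1-K27M cells and 11637 in H3.1-WT cells, so here the lists differed in enrichment more than in extent. Beside these, H3.1-K27M had lesser peaks from -18.0 to -17.0 kb and from -11.5 to -11.2 kb with no H3.1-WT counterpart, and H3.1-WT had one from 15.2 to 15.6 kb with no H3.1-K27M counterpart.

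SOX21, the other B2 gene, lay under the widest of these peaks in H3.1-WT cells and under small fragments in H3.1-K27M cells. SOX21 (chromosome 13, 13q32.1) encodes a factor that counters the B1 proteins and promotes neuronal differentiation in vertebrate embryos. In H3.1-K27M cells a peak of 1769 bases (chr13:95363923-95365691, 3.47-fold) lay at the start and another of 315 bases from -4.25 to -3.94 kb. In H3.1-WT cells 1 peak of 8687 bases (chr13:95358505-95367191, 5.35-fold) spanned both places and was among the widest 0.373% of its list. Covered length at SOX21 was 2084 bases in H3.1-K27M cells and 9621 in H3.1-WT cells, and all bases covered in H3.1-K27M cells were covered in H3.1-WT cells too.

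At SOX1 most of the covered length was found in H3.1-WT cells alone. SOX1 (chromosome 13, 13q34) is a B1 gene of early neural progenitors. H3.1-K27M had 1 peak, at chr13:112708897-112711476, 2580 bases wide and 3.89-fold. H3.1-WT had 5 peaks from -16.2 to 7.03 kb, which covered 14987 bases, more than at any other of the 10 genes. The strongest of them (chr13:112708656-112713053, 6.92-fold, −log10 q 9.73) contained the H3.1-K27M peak. The widest, 6107 bases from 0.920 to 7.03 kb with 5.40-fold, had no overlap in H3.1-K27M cells. Neither list had a peak between -1.43 and 0.920 kb, so the SOX1 start, where the CG-rich stretch printed above ends, fell in a gap between H3.1-WT peaks.

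SOX2 had peaks in H3.1-WT cells only. SOX2 (chromosome 3, 3q26.33), also of the B1 branch, maintains pluripotent cells and neural stem cells. The nearest H3.1-K27M peak lay 217 kb from the start, with a fold enrichment of 3.15. In H3.1-WT cells a peak of 975 bases spanned the start (chr3:181429635-181430609, 4.58-fold, −log10 q 3.86), and a weaker one of 1134 bases lay from -12.4 to -11.2 kb at 3.31-fold. Neither was strong. Among the 10293 autosomal peaks of H3.1-WT cells whose −log10 q lay from 2 to 5, 41.7% had an overlapping H3.1-K27M call, so a missing call was common at the strength of the SOX2 start peak.

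SOX11, the group C gene, had nearly the same covered length in both genotypes. SOX11 (chromosome 2, 2p25.2) acts in neuronal differentiation and in embryonic growth of many tissues. The start was spanned by a peak of 4283 bases in H3.1-K27M cells (chr2:5831980-5836262, 3.58-fold, −log10 q 1.91) and by a peak of 5407 bases in H3.1-WT cells (chr2:5830479-5835885, 4.91-fold, −log10 q 4.73). A second shared peak near -18.3 kb reached 3.46-fold in H3.1-K27M cells and 3.64-fold in H3.1-WT cells. H3.1-K27M had a further peak from 5.45 to 6.38 kb, at 3.17-fold, with none in H3.1-WT cells. Covered length was 5830 bases in H3.1-K27M cells and 6254 in H3.1-WT cells, a ratio of 0.932, the highest of the 9 genes with peaks.

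**Figure D2:**
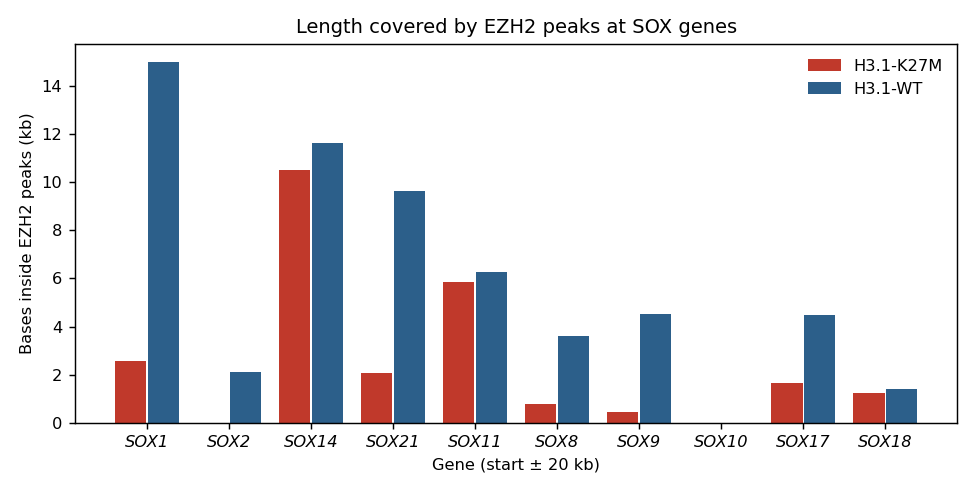
Bases inside EZH2 peaks within 20 kb of each SOX gene start, in kb, with H3.1-K27M left of H3.1-WT at each gene. SOX11, SOX14 and SOX18 have ratios from 0.873 to 0.932, SOX1, SOX8, SOX9, SOX17 and SOX21 from 0.0987 to 0.369, SOX2 has no H3.1-K27M bar and SOX10 has no bar.

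The group E genes, which act together in the neural crest, ranged from a start domain to no peak. SOX9 (chromosome 17, 17q24.3), which directs cartilage and testis development, had the lowest ratio among the genes with peaks in both lists. Its start region held a peak of 445 bases in H3.1-K27M cells (chr17:70116279-70116723, 3.096-fold, −log10 q 1.41) and a peak of 4507 bases in H3.1-WT cells (chr17:70113623-70118129, 6.12-fold, −log10 q 7.79), a ratio of 0.0987. SOX8 (chromosome 16, 16p13.3), a related factor of crest and gonad, showed the same arrangement at lower strength. It had 788 bases in H3.1-K27M cells (chr16:1032468-1033255, 3.29-fold) inside 3349 bases in H3.1-WT cells (chr16:1030068-1033416, 4.66-fold).

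SOX10 stood apart from its relatives. SOX10 (chromosome 22, 22q13.1) is required for Schwann cells, melanocytes and oligodendrocytes. Its window held no peak in either list. The nearest peak lay 175 kb away in H3.1-K27M cells and 29.9 kb away in H3.1-WT cells, where it was 4.17-fold. At the background shares given above, an empty window was the more frequent case among tiles in both lists. No call in these lists is not evidence of absent EZH2, since depth is unknown.

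The group F genes had peaks of at most 1854 bases, mostly away from the start, and each had 1 strong peak in H3.1-WT cells. SOX17 (chromosome 8, 8q11.23) specifies endoderm and arterial endothelium. Its strongest peak, 1214 bases at 3.60-fold in H3.1-K27M cells and 1854 bases at 7.20-fold in H3.1-WT cells (−log10 q 10.3), lay from -3.53 to -2.32 kb in H3.1-K27M cells and from -4.14 to -2.29 kb in H3.1-WT cells. Another shared site had 3.23-fold in H3.1-K27M cells and 3.58-fold in H3.1-WT cells. A weak peak over the SOX17 start and another from 2.21 to 2.53 kb were called in H3.1-WT cells alone.

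SOX18 (chromosome 20, 20q13.33), a regulator of blood and lymphatic vessel formation, shared its peaks between the lists except at the start. The pair at chr20:62670001-62670447 in H3.1-K27M cells and chr20:62669787-62670480 in H3.1-WT cells had 3.62-fold enrichment in H3.1-K27M cells and 5.48-fold in H3.1-WT cells. The pair near 13.2 kb had 3.60-fold in H3.1-K27M cells and 4.16-fold in H3.1-WT cells. The only peak within 1 kb of the SOX18 start, 337 bases from 0.458 kb at 2.93-fold, was called in H3.1-K27M cells with a −log10 q of 1.13, near the limit of the list. In GRCh38 the protein-coding genes PRPF6, TCEA2 and C20orf204 lie within 20 kb of SOX18, so these peaks cannot be assigned to SOX18 alone. LMF1 likewise neighbours SOX8, LOC100129098 neighbours SOX17, and POLR2F and C22orf23 neighbour SOX10. SOX1, SOX2, SOX9, SOX11, SOX14 and SOX21 had no protein-coding neighbour that near.

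Where both lists called a site, the H3.1-K27M peak was weaker every time. Of the 24 H3.1-WT peaks, 13 were overlapped by at least 1 base, and the highest overlapping H3.1-K27M peak had the lower fold enrichment at 13 of 13. This was so at 59.0% of the 10067 overlapped autosomal H3.1-WT peaks. The median quotient of H3.1-K27M over H3.1-WT fold enrichment was 0.707, with a range from 0.499 at SOX17 to 0.9499 at SOX11, against 0.957 over the autosomes. The SOX peaks of H3.1-WT cells had a median fold enrichment of 4.39, against 3.43 on autosomes, so the quotient is also given by range of −log10 q. Among overlapped H3.1-WT peaks of −log10 q 5 to 10, H3.1-K27M was lower at 4 of 4 SOX peaks and at 93.3% on autosomes, with median quotients of 0.605 at the SOX peaks and 0.712 on autosomes. At 10 and above it was lower at 3 of 3 and at 97.4%, with medians of 0.546 at the SOX peaks and 0.594 on autosomes. From 2 to 5 it was lower at 5 of 5 and at 75.6%, with medians of 0.862 at the SOX peaks and 0.896 on autosomes. From 1 to 2 the only overlapped SOX peak had a quotient of 0.902, and on autosomes 26.6% were lower with a median of 1.07. Read from the H3.1-K27M peaks, the quotient of the highest overlapping H3.1-WT fold enrichment over that of H3.1-K27M had a median of 1.41 at 9 SOX peaks with a −log10 q from 1 to 2, against 1.08 on autosomes. H3.1-WT was the lower at 0 of these 9 and at 30.1% on autosomes. From 2 to 5 the medians were 1.54 at 3 SOX peaks and 0.998 on autosomes. The SOX quotients thus lay on the side of weaker H3.1-K27M peaks in every range read, from either list, by differing amounts and on few peaks. The quotient can be read only where a peak was called in both lists.

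**Figure D3:**
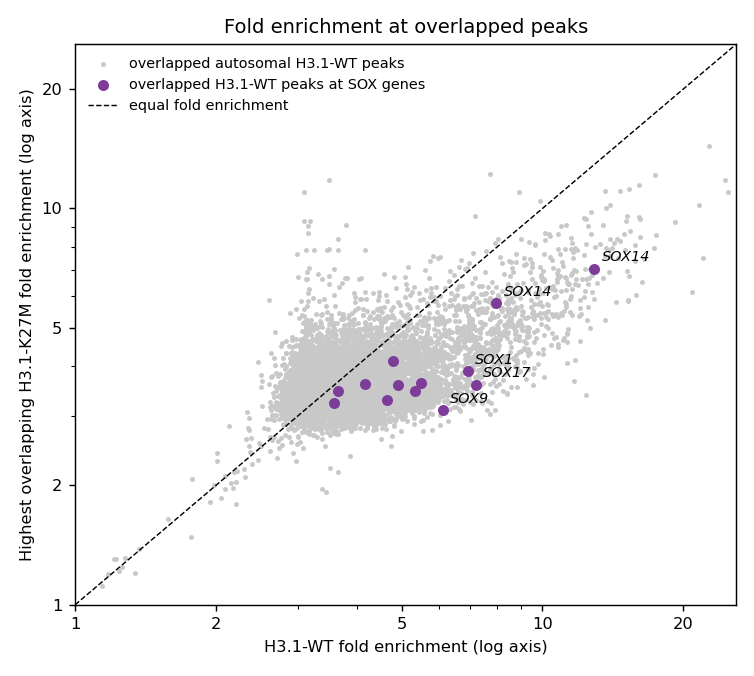
Fold enrichment of each H3.1-WT peak that is overlapped by an H3.1-K27M peak (horizontal, log axis) against the highest overlapping H3.1-K27M fold enrichment (vertical, log axis). Purple points are the 13 overlapped peaks at SOX genes, all below the dashed line of equal enrichment, and grey points the 10067 on autosomes.

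The 8 genes with peaks in both lists gave the same picture by gene, read from the same peaks and so not as separate support. Of all autosomal tiles, 14.9% had peaks in both. The highest fold enrichment in the window was lower in H3.1-K27M cells at 8 of 8, against 59.5% of the 10759 autosomal tiles with peaks in both lists. The median quotient was 0.605 at these genes and 0.955 in the tiles, which were not matched to the genes in peak strength. For covered length the median quotient was 0.293 at the genes and 0.898 in the tiles, and covered length was lower at 8 of 8 genes and in 54.4% of tiles. At the 6 genes with a strong H3.1-WT peak (SOX1, SOX9, SOX14, SOX17, SOX18 and SOX21), the summed covered length had a ratio of 0.397. In the 2096 tiles with such a peak the ratio was 0.811. All 6 genes had less covered length in H3.1-K27M cells, as had 75.7% of these tiles. None of the 6 lacked an H3.1-K27M peak, which 14.1% of these tiles did. Genes and tiles chosen for a strong H3.1-WT peak favour a lower H3.1-K27M value.

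What H3.1-K27M covered at the SOX genes was for the most part also covered in H3.1-WT cells. Of the 25126 bases in H3.1-K27M peaks, 86.0% lay in H3.1-WT peaks, against 31.7% over all autosomes. H3.1-WT peaks covered 14.7% of the windows and 1.15% of the autosomes, and the part of this in the higher share was not tested. In the other direction 36.9% of the 58612 H3.1-WT bases lay in H3.1-K27M peaks, against 33.2% over all autosomes. By peak, 14 of 18 in H3.1-K27M cells were overlapped (77.8%, exact 95% interval 52.4% to 93.6%), against 35.3% of autosomal peaks, and 13 of 24 in H3.1-WT cells (54.2%, 32.8% to 74.4%), against 34.7%. Weak H3.1-K27M peaks, with a −log10 q from 1 to 2, were overlapped at 9 of 12 SOX sites and for 25.9% of 21084 autosomal peaks. For H3.1-K27M peaks from 2 to 5 it was 3 of 4 SOX sites, against 59.5% on autosomes. Weak H3.1-WT peaks, from 1 to 2, were overlapped at 1 of 7 SOX sites and for 24.5% of 16701 autosomal peaks. From 2 to 5 the H3.1-WT values were 5 of 9 and 41.7%, from 5 to 10 they were 4 of 5 and 75.5%, and at 10 and above 3 of 3 and 98.3%. Within ranges the H3.1-WT shares thus lay on both sides of the autosomal ones, and the higher share over all H3.1-WT peaks at SOX genes went with their strength.

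Coverage was concentrated at the starts in both genotypes and fell off with distance up to 50 kb. Within 2 kb of the 10 starts, 22.2% of bases lay in peaks in H3.1-K27M cells and 53.2% in H3.1-WT cells. The autosomal shares were 1.20% in H3.1-K27M cells and 1.15% in H3.1-WT cells. From 2 to 5 kb the shares were 8.21% in H3.1-K27M cells and 27.2% in H3.1-WT cells, from 5 to 10 kb 4.84% in H3.1-K27M cells and 9.94% in H3.1-WT cells, and from 10 to 20 kb 3.25% in H3.1-K27M cells and 5.54% in H3.1-WT cells. From 20 to 50 kb they were 0.385% in H3.1-K27M cells and 0.729% in H3.1-WT cells, both below the autosomal shares, and from 50 to 100 kb 0.221% in H3.1-K27M cells and 1.10% in H3.1-WT cells. A peak lay within 1 kb of the start at 6 genes in H3.1-K27M cells and 8 in H3.1-WT cells, 5 of them in both. No share of other gene starts or of stretches that short is given here, so these counts are a description without a background. The ratio of covered length was lowest in the rings from 2 to 5 kb and from 50 to 100 kb, at 0.301 and 0.201, and was 0.417 within 2 kb. Per base, the windows were 22.3 times as covered as the stretch from 20 to 100 kb around the same starts in H3.1-K27M cells and 15.3 times in H3.1-WT cells. The order of the genotypes turned with windows of 10 kb, to 15.2 times in H3.1-K27M cells and 16.2 times in H3.1-WT cells, and the H3.1-K27M value ran from 12.4 to 113 over the alternatives, so no difference between genotypes is read from it.

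**Figure D4:**
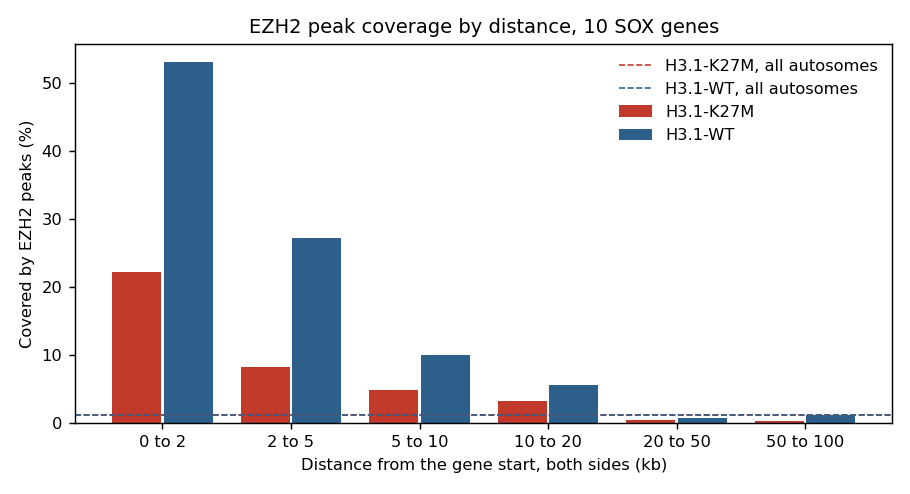
Share of bases inside EZH2 peaks by distance from the start, summed over the 10 SOX genes and both sides, with H3.1-K27M left of H3.1-WT. Dashed lines give the shares over all autosomes, 1.20% in H3.1-K27M cells and 1.15% in H3.1-WT cells, which nearly coincide.

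A list of 6 other SOX genes (SOX3, SOX4, SOX12, SOX13, SOX15 and SOX30), whose hg19 starts were taken from general knowledge, had peaks but no strong ones. Strong peaks lay in only 0.925% of autosomal tiles in the H3.1-K27M list and 2.91% in the H3.1-WT list, so lacking one was the usual case. Peaks of any strength lay at 4 of the genes in H3.1-K27M cells and at 5 in H3.1-WT cells. The tile shares were 23.0% in the H3.1-K27M list and 29.0% in the H3.1-WT list. Covered length was 5377 bases in H3.1-K27M cells and 16425 in H3.1-WT cells, a ratio of 0.327. It was lower in H3.1-K27M cells at each of the 5, and in 59.8% of tiles with a peak in either list. At SOX3, a B1 gene on chromosome X, the highest fold enrichment was 3.87 in H3.1-K27M cells and 4.31 in H3.1-WT cells. The median quotient of the highest fold enrichment over the 4 genes with peaks in both lists was 0.854, against 0.605 at the 8 lineage genes. The genes were not matched in peak strength. At these 4 the highest H3.1-WT −log10 q ran from 2.67 to 4.42, while 6 of the 8 lineage genes had a strong H3.1-WT peak. On autosomes the median quotient of overlapped H3.1-WT peaks also fell with strength, from 0.896 at 2 to 5 to 0.594 at 10 and above. SOX4 and SOX12, the group C relatives of SOX11, covered 1254 and 903 bases in H3.1-K27M cells and 3723 and 2060 in H3.1-WT cells. SOX13 had peaks in H3.1-WT cells alone, and SOX15 in neither list.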

How the data were processed

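EZH2 CUT&RUN peaks of H3.1-K27M and H3.1-WT HEK293 cells were analysed as 2 deposited lists of broad peaks, called per sample and not on pooled libraries, per the names of the peaks in the files. MACS2, Bowtie2 2.3.5.1, cutadapt, Picard and deepTools, and the build hg19, appear in the submitters' processing notes with no roles or parameters. For each peak the authors deposited a fold enrichment, a linear ratio over the background their caller estimated, a −log10 p, a −log10 q and a score near 10 times the −log10 q. The lowest −log10 q was 1.00 in H3.1-K27M cells and 1.01 in H3.1-WT cells. The scaling between EZH2 and HRP libraries and the depth are not given in the sources used here, and both can move every value. No peak ended past an hg19 chromosome end.

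From these, peaks and merged covered bases within 20 kb of the given starts were counted, and overlaps of at least 1 base taken. Autosomal tiles of 40 kb and all autosomal peaks gave the background. All 10 genes of the rule are named. Bands and chromosome ends came from circlize 0.4.16. Intervals are exact (Clopper-Pearson, 95%) and cover counting error only. No test was made between genotypes. Functions were tested on simulated lists. The software was pandas 2.3.3, scipy 1.17.1, numpy 2.4.6 and matplotlib 3.10.9 under Python 3.11.15. The genes and lists were chosen with earlier results of these data known. Alternatives were windows of 10 and 50 kb, −log10 q minimums of 2 and 5, equal list lengths, a reciprocal overlap of 50%, joined peaks and leaving out each gene. SOX5, SOX6, SOX7 and SRY were not analysed here.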

Additional observations from a re-analysis of the deposited data

How the results depend on the processing

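Of 65 alternative values, 49 stayed within their limits (the 95% interval for shares and peak ratios, 1.5 times otherwise), 16 moved, and no ratio of H3.1-K27M over H3.1-WT crossed 1. The order of the genotypes in the ratio of windows to flanks did turn with windows of 10 kb, to 15.2 in H3.1-K27M cells and 16.2 in H3.1-WT cells, against 22.3 in H3.1-K27M cells and 15.3 in H3.1-WT cells with 20 kb. With a −log10 q of at least 2, genes with an H3.1-K27M peak fell to 3 from the 8 over all peaks. Genes with a lower top fold enrichment also numbered 3, which is every gene that still had an H3.1-K27M peak. With both lists cut at this minimum, the ratio of covered bases fell to 0.276, that of peak numbers to 0.353 and the overlapped share of H3.1-WT peaks to 29.4%. The H3.1-WT ratio of windows to flanks was 23.9. At a minimum of 5 the first 5 of these were 1, 1, 0.188, 0.250 and 25%, and 100% of the H3.1-K27M peaks were overlapped. These shares rest on 8 H3.1-WT peaks (95% interval 3.19% to 65.1%) and 2 H3.1-K27M peaks (15.8% to 100%). Both lists were cut at each minimum, so overlaps by weaker H3.1-K27M peaks no longer counted. Against all H3.1-K27M peaks, 5 of 9 H3.1-WT SOX peaks with a −log10 q from 2 to 5 were overlapped. From 5 to 10 it was 4 of 5, and at 10 and above 3 of 3. H3.1-K27M had no flank peaks at either minimum and H3.1-WT none at 5, so those ratios of windows to flanks could not be computed. Windows of 50 kb lowered the ratio of windows to flanks to 12.4 in H3.1-K27M cells and 5.74 in H3.1-WT cells. The flank ran from the window edge to 100 kb at each window size, so window and flank changed together. Equal lists of 15538 peaks raised it to 113 in H3.1-K27M cells. A reciprocal overlap of 50% lowered the overlapped share of H3.1-K27M peaks to 50%. Joining peaks within 5000 bases made peak numbers equal, a ratio of 1. Leaving out each gene gave ratios of covered bases from 0.311 without SOX14 to 0.517 without SOX1, and of peak numbers from 0.650 without SOX14 to 0.895 without SOX1. Where not stated, the cause was not tested. SOX14 held 41.9% of the covered bases in H3.1-K27M cells and 19.9% in H3.1-WT cells. No paired analysis was possible because there is 1 EZH2 library per genotype. Depth is unknown, which limits what either list can show.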
